A study of Drosophila melanogaster with 6 samples.

Results

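The genes described here encode glutathione S-transferases and UDP-glycosyltransferases, the enzymes that attach glutathione or a sugar to other molecules. They were taken as every row of the count table whose FlyBase symbol begins with Gst and a capital letter or with Ugt and a digit, which gave 70 of 17562 rows. The 70 genes fall into 4 classes by symbol, namely 11 GstD, 14 GstE, 10 other Gst (omega, sigma, theta and zeta) and 35 Ugt genes. RNA-seq was done on whole Drosophila melanogaster larvae of the third instar that had begun to wander, which is when they leave the food before pupariation. The control was the strain w1118, with 3 libraries, and the mutant was homozygous for cdk8K185, with 3 libraries, each from a pool of 10 larvae. cdk8K185 is a null allele of Cdk8, which encodes a kinase of the Mediator complex, and its deletion also removes part of the neighbouring gene I-2. The allele was carried on an FRT80B chromosome, the strain was outcrossed to w1118, and homozygous larvae were picked by the absence of the Tb marker of a balancer chromosome. A single allele from a single strain stood for the loss of Cdk8, so a difference between these libraries is a difference between strains that differ in Cdk8, in I-2 and in any sequence still linked to them.

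Glutathione S-transferases join the tripeptide glutathione to reactive or fat-soluble molecules, and some also act as peroxidases, isomerases or steps of hormone synthesis. UDP-glycosyltransferases take a sugar from a UDP-sugar, in insects mostly glucose, and link it to compounds such as plant toxins, pigments and hormones. In insect larvae both families are known for making food toxins and waste products soluble in gut, fat body and Malpighian tubules, after which transporters carry the conjugates out of the cell. Many of the genes lie in tandem clusters and resemble each other, so reads of a close relative can be added to or missing from a count.

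Library totals ran from 9208564 to 11724703 counts, and the 70 genes took 0.233% to 0.262% of the counts in w1118 and 0.28% to 0.344% in cdk8K185. These are shares of unscaled counts, and the summed levels after scaling, given below, overlapped. As a check of the labels, Cdk8 was lower in the mutant, with 9.48 ± 0.642 CPM in w1118, against 6.13 ± 1.27 in cdk8K185 (mean ± SD of 3 pools; edgeR log2 fold change -0.63, adjusted p 0.0344). I-2 was lower as well, at 31.5 ± 3.83 and 5.37 ± 0.212 CPM. Reads of Cdk8 thus remained in every mutant library, and counts per gene do not show on which part of the gene they fall. Here CPM is the count of a gene per 1000000 counts of the scaled library. A gene is called below when its adjusted p from the edgeR quasi-likelihood test, taken over all 10632 genes tested, is under 0.05. Marker lists of larval tissues were examined as well. Of all genes tested 36.9% were called, 19.9% higher and 17% lower. All 8 salivary gland markers were called lower (summed level 28809 to 35243 CPM in w1118, 1735 to 2688 CPM in cdk8K185), as were all 5 prothoracic gland markers and 3 of 8 fat body markers (summed level 59160 to 69635 CPM against 18825 to 39255 CPM). Of 10 midgut markers 3 were called higher and 1 lower (2594 to 3354 CPM against 2990 to 3683 CPM), and of 7 Malpighian tubule markers 1 was called higher and 1 lower (257 to 299 CPM against 399 to 536 CPM). The salivary gland markers fell unequally, with log2 fold changes from -6.46 for Sgs1 to -0.55 for fkh. The Sgs genes made up most of that sum, while fkh went from 47.9 to 32.8 CPM. Single genes weighed heavily in the tubule and fat body sums. Uro went from 12.5 ± 7.64 to 232 ± 64.0 CPM, while Best2 was lower and 5 tubule markers were not called. Fbp1 went from 35924 to 4184 CPM, while 5 of the 8 fat body markers were not called. The 6 muscle markers had log2 fold changes from -0.70 to 0.29 without a call, and 2 of 6 nervous system, 2 of 5 haemocyte and 1 of 6 imaginal disc markers were called. The share called was 40% for midgut, 28.6% for tubule, 33.3% for nervous system, 40% for haemocyte and 16.7% for imaginal disc markers. These shares lie near or below that of all genes. Of the fat body markers 37.5% were called lower, against 17% of all genes. No marker of these lists was at 0 in every library. In RNA of whole larvae, fewer cells of a type and less RNA per cell cannot be told apart, and the part of tissue composition in the results below was not tested.

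Of the 70 genes, 54 had enough counts to be tested and 27 of these were called, which is 50% against 36.9% of all genes tested. More of them rose than fell in cdk8K185. Higher levels were called for 20 genes, or 37% of those tested against 19.9% of all genes, and lower levels for 7 genes, or 13% against 17%. Among the called genes 14 rose at least 2-fold (25.9% against 7.9% of all genes tested) and 4 fell at least 2-fold (7.41% against 8.64%). For 22 genes every cdk8K185 library lay above every w1118 library (40.7% against 29.2% of all genes) and for 9 genes every one lay below (16.7% against 24.4%). The median log2 fold change, cdk8K185 over w1118, was 0.24 over the 54 genes and 0.02 over all genes. Ugt49C1 passed the filter on low counts only through its cdk8K185 libraries. Without genes tested through a single genotype 19 of 53 members were higher (35.8% against 19% of all such genes) and 13 rose at least 2-fold (24.5% against 6.5%). Both counts still include GstD7, which reached the minimum in 1 w1118 and 3 cdk8K185 libraries, so they are not free of this filter. With at least 10 counts required in every library, 19 of 48 members were higher (39.6% against 19.5% of all genes). Of these 53 genes, 48 reached the minimum in all 6 libraries, and 5 in at least 1 library of each genotype but not in all.

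No test compares the classes with each other. Of 7 tested GstD genes 4 were higher (57.1% against 19.9% of all genes) and 1 lower (14.3% against 17%), with a median log2 fold change of 0.80. GstD7, among the 4, and GstD8, whose value is this median, reached the filter minimum in 1 w1118 and 3 cdk8K185 libraries. Both were thus tested mainly through their mutant libraries, and the class share and median rest partly on them. Without w1118 replicate 1 only 2 of 9 tested GstD genes were still higher (against 16.8% of all genes), and without w1118 replicate 2 only 1 of 8 (15.7%). Without cdk8K185 replicate 1 it was 1 of 9 (13.4%), and without cdk8K185 replicate 3 it was 1 of 8 (14.7%). In these fits the class lay near the share of all genes. Without w1118 replicate 3 it was 4 of 8 (17.8%), and without cdk8K185 replicate 2 it was 3 of 8 (15.6%). In GstE 4 of 13 were higher (30.8%) and 1 lower (7.69%), with a median of 0.23. The other Gst genes lay near the share of all genes, with 2 of 10 higher (20%) and 2 lower (20%) and a median of 0.09. Of 24 Ugt genes 10 were higher (41.7%) and 3 lower (12.5%), with a median of 0.39. The 10 include Ugt49C1, which was tested only through its cdk8K185 libraries and lends this share no support. None of the 27 called genes changed direction in any of the 14 alternatives run, but single libraries moved the counts. Without w1118 replicate 1 there were 15 higher and 7 lower of 58 genes tested (25.9% and 12.1%, against 16.8% and 14.1% of all genes). Without cdk8K185 replicate 1 there were 12 higher and 7 lower of 56 (21.4% and 12.5%, against 13.4% and 11.5% of all genes). With library totals alone in place of TMM scaling, which shifted the log2 fold changes of all genes by a median of 0.22, 25 genes were called higher and 5 lower, and 32.5% of all genes were higher and 11.3% lower.

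**Figure D1:**
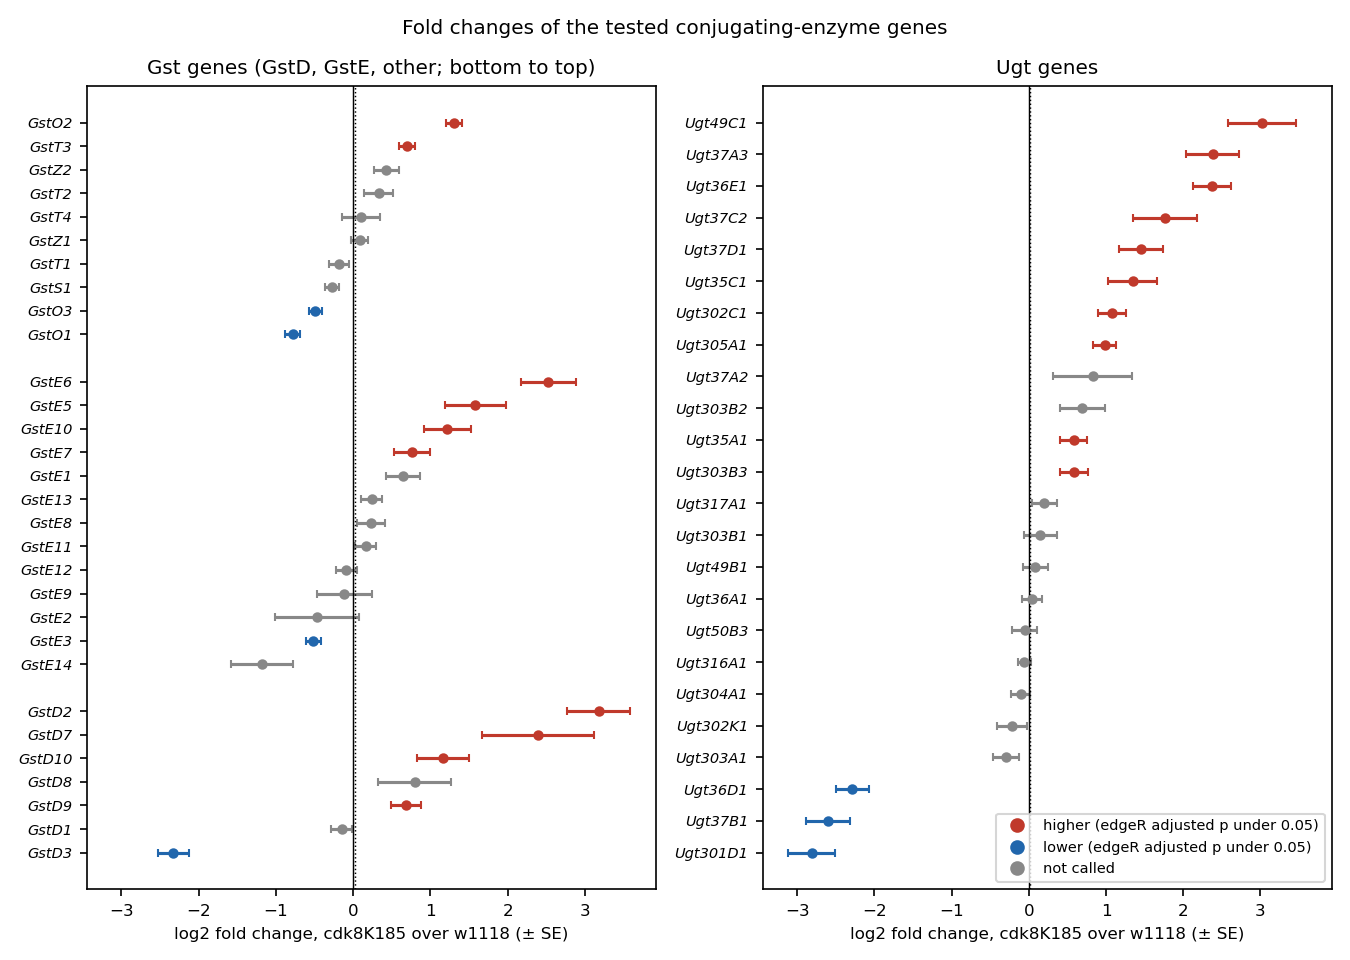
Log2 fold change (cdk8K185 over w1118, ± SE) of the 54 tested genes, sorted within class, with called genes in red (higher) or blue (lower), other genes in grey, and the median of all genes as a dotted line. The changes run from -2.81 for Ugt301D1 to 3.18 for GstD2, and every class holds genes called in both directions.

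Levels between genes can be compared only per length, so CPM were divided by the exon length in kb for this purpose. By this measure GstD1 ranked first in both genotypes, at 694 CPM per kb in w1118 and 626 in cdk8K185. Over the 6 libraries it was followed by GstT4, GstO3, GstE12, Ugt37A3, GstS1, GstE3, GstT1, GstE7 and GstE11. Of these 10 most abundant genes, 2 were called higher (Ugt37A3, GstE7), 2 lower (GstO3, GstE3) and 6 not called. These counts lie near the share of all genes tested, of which 19.9% were higher and 17% lower. The order of the genes shifted where single members changed strongly. GstD2 went from rank 45 of 70 in w1118 to rank 15 in cdk8K185, whereas GstD3 went from rank 20 to rank 47, Ugt301D1 from 7 to 32 and Ugt36D1 from 9 to 34. Ugt37A3 moved from rank 11 to rank 2.

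Summed over each class, the levels moved less than many single members did. The GstD sum was 615 ± 99.6 CPM in w1118, against 582 ± 31.0 in cdk8K185 (mean ± SD of 3 pools), a difference within the replicate spread. GstD1 alone made up 95.2% and 90.7% of it. Without GstD1 the sum of the class rose from 29.7 ± 7.21 to 53.95 ± 14.7 CPM. The GstE sum was 508 ± 82.4 and 565 ± 36.4 CPM, with GstE12 at 48% and 40.6% of it, and the sum of the other Gst genes was 875 ± 82.99 and 850.1 ± 72.8 CPM. The sum of all 35 Gst genes was nearly equal, at 1998 ± 248 and 1996 ± 76.1 CPM. The Ugt sum was 701, 603 and 749.6 CPM in w1118, against 754, 833 and 1026 in cdk8K185, so every mutant library lay above every control library. Its make-up changed more than its size. Ugt37A3 went from 11.2% to 45.6% of the Ugt sum, while Ugt301D1 and Ugt36D1 together went from 41.4% (283 ± 82.4 CPM) to 5.52% (48.1 ± 3.77 CPM). Without Ugt37A3 the sum of the remaining Ugt genes was 608 ± 80.1 CPM in w1118, against 474 ± 47.1 in cdk8K185.

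**Figure D2:**
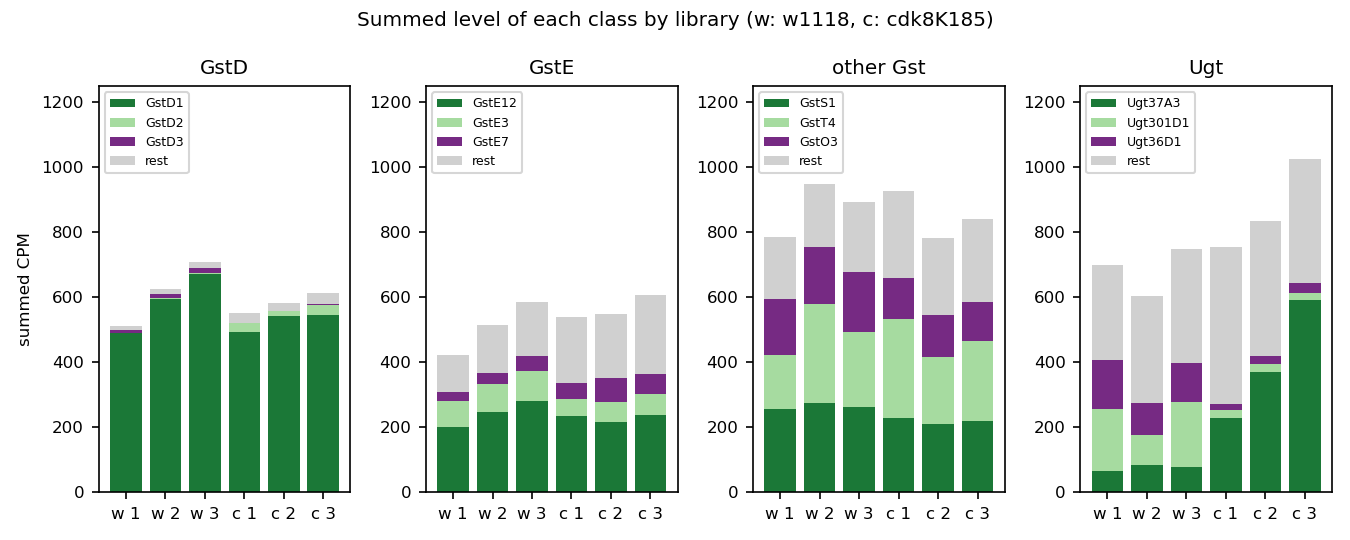
Summed CPM of each class in the 3 w1118 (w) and 3 cdk8K185 (c) libraries, stacked with 3 abundant members in colour and all other members of the class in grey. GstD1 fills nearly the whole GstD bar in all 6 libraries, while in the Ugt panel Ugt37A3 grows and Ugt301D1 and Ugt36D1 shrink.

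The GstD genes form a cluster of 11 on the right arm of chromosome 3 (3R:12364776-12385624, dm6), spanning 20.849 kb. GstD1, best known as the enzyme that removes hydrogen chloride from DDT, stood at 489, 594 and 673 CPM in the w1118 libraries and at 494, 543 and 546 CPM in the cdk8K185 libraries. The libraries overlapped and the gene was not called (edgeR log2 fold change -0.15 with an SE of 0.14, adjusted p 0.423), and with library totals its log2 fold change was 0.08. GstD2, a gene with a single exon, had 1.51, 3.17 and 3.01 CPM in w1118, against 25.7, 13.1 and 30.7 in cdk8K185. Every mutant library lay at least 4-fold above every control library, and the log2 fold change of 3.18 (SE 0.41, edgeR adjusted p 0.00167) was the largest increase among the 54 tested genes. Its downstream neighbour GstD3, also a single exon gene, moved the other way. It had 10.01, 11.8 and 14.4 CPM in w1118, against 2.53, 2.15 and 2.49 in cdk8K185, with a log2 fold change of -2.33 (SE 0.19, edgeR adjusted p 0.000245). Both calls held in all 14 alternatives run.

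The other 3 called GstD genes were higher in the mutant at low levels. GstD10 had 2.93, 6.05 and 7.53 CPM in w1118, against 12.1, 9.68 and 15.02 in cdk8K185 (edgeR log2 fold change 1.17 with an SE of 0.34, adjusted p 0.0340). GstD7 rested on few reads, with 1, 2 and 10 counts in the w1118 libraries and 32, 19 and 30 in the cdk8K185 libraries (edgeR log2 fold change 2.40 with an SE of 0.72, adjusted p 0.0368). GstD9 had 4.81 to 6.56 CPM in w1118, against 7.33 to 10.1 in cdk8K185 (log2 fold change 0.69). For all 3 genes the genotypes did not overlap, yet each call depended on single libraries. GstD10 was not called without w1118 replicate 2 (log2 fold change 1.25, edgeR adjusted p 0.0688), cdk8K185 replicate 1 (1.16, 0.0852) or cdk8K185 replicate 3 (1.02, 0.0850). GstD7 was called without w1118 replicate 3 and in none of the other 5 fits that each left out 1 library (edgeR adjusted p 0.0646 to 0.120), and GstD9 was not called in 4 of them (0.0659 to 0.107) nor by DESeq2 (adjusted p 0.0620). GstD8 was not called (log2 fold change 0.80, edgeR adjusted p 0.219), and GstD4, GstD5, GstD6 and GstD11 had too few counts to be tested, with means of at most 1.21 CPM in either genotype.

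Of the 14 GstE genes, 10 lie in a cluster of 13.198 kb on the right arm of chromosome 2 (2R:18396638-18409835), and GstE11, GstE12, GstE13 and GstE14 lie elsewhere on that arm. GstE6 rose most, from 2.93, 5.25 and 8.28 CPM in w1118 to 28.0, 26.5 and 39.8 CPM in cdk8K185. The lowest mutant library was more than 3 times the highest control library, with a log2 fold change of 2.53 (SE 0.35, edgeR adjusted p 0.00234) whose call held in all 14 alternatives. Its neighbour GstE5 had 3.21, 7.53 and 10.1 CPM in w1118, against 27.3, 17.7 and 17.1 in cdk8K185 (edgeR log2 fold change 1.58 with an SE of 0.40, adjusted p 0.0224). GstE10, at the other end of the cluster, had 2.27, 5.55 and 4.52 CPM in w1118, against 10.7, 8.99 and 8.93 in cdk8K185 (edgeR log2 fold change 1.22 with an SE of 0.30, adjusted p 0.0188). In both genes the mutant libraries were all above the control libraries. Without cdk8K185 replicate 1 neither was called, at an edgeR adjusted p of 0.0735 for GstE5 (log2 fold change 1.32) and 0.0690 for GstE10 (log2 fold change 1.12), and without w1118 replicate 2 GstE5 was not called either (log2 fold change 1.65, edgeR adjusted p 0.0657).

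The GstE genes that are abundant per length moved less. GstE7 rose from 36.6 ± 9.66 to 62.1 ± 14.1 CPM (mean ± SD of 3 pools; edgeR log2 fold change 0.76, adjusted p 0.0432), a call that was lost in 4 of the 6 fits that left out 1 library (w1118 replicate 1 or 2, cdk8K185 replicate 2 or 3, with log2 fold changes of 0.59, 0.74, 0.60 and 0.76). GstE3 was the only GstE gene called lower, at 81.1, 84.5 and 90.3 CPM in w1118, against 53.3, 61.6 and 64.4 in cdk8K185. The groups did not overlap (edgeR log2 fold change -0.51 with an SE of 0.10, adjusted p 0.00749), and the gene was not called with library totals (log2 fold change -0.29, edgeR adjusted p 0.0982). GstE12, the most abundant GstE gene per length, had 200.3, 248 and 282 CPM in w1118, against 235, 215 and 237 in cdk8K185, with full overlap (edgeR log2 fold change -0.09 with an SE of 0.14, adjusted p 0.648). With library totals its log2 fold change was 0.14. GstE1 had a log2 fold change of 0.65 and missed the threshold (edgeR adjusted p 0.0554), although its mutant libraries all lay above the controls. It was called by DESeq2 (adjusted p 0.0377). In edgeR it was called with library totals (adjusted p 0.0211), with at least 10 counts in every library (0.0481) and without w1118 replicate 2 (0.0440) or cdk8K185 replicate 1 (0.0312). GstE2, GstE8, GstE9, GstE11 and GstE13 were not called, with log2 fold changes between -0.47 and 0.24, and GstE4 was not tested.

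GstE14 (2R:13239729-13241013, 4 exons), also known as noppera-bo, acts in the prothoracic gland, where it is needed for the synthesis of ecdysteroids from cholesterol. It was scarce in these libraries, with 2.55, 2.58 and 2.37 CPM in w1118, against 1.52, 1.17 and 0.601 in cdk8K185. All mutant libraries lay below all control libraries, but the log2 fold change of -1.18 (SE 0.40) missed the threshold (edgeR adjusted p 0.0542). limma-voom called it (log2 fold change -1.26, adjusted p 0.0387), and over all alternatives that gave a value the adjusted p ran from 0.0387 to 0.143. Beside it, all 5 of 5 prothoracic gland markers were called lower (dib, sad, nvd, spok and sro), with a summed level of 117.8 to 127 CPM in w1118, against 33.7 to 42.4 in cdk8K185. None of these markers was at 0, and their part in the level of GstE14 was not tested.

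The omega class genes GstO1, GstO2 and GstO3 lie side by side on the left arm of chromosome 3 (3L:8518885-8524866), and all 3 were called, though not in the same direction. GstO2 had 32.5, 34.5 and 31.9 CPM in w1118, against 92.1, 76.4 and 76.4 in cdk8K185. Replicates of this gene lay close together, and the log2 fold change was 1.31 (SE 0.11, edgeR adjusted p 0.000218). GstO1 fell from 23.5 ± 1.08 to 13.6 ± 0.401 CPM (mean ± SD of 3 pools; edgeR log2 fold change -0.78 with an SE of 0.10, adjusted p 0.00109) and GstO3 from 176 ± 5.50 to 125 ± 4.91 CPM (edgeR log2 fold change -0.49 with an SE of 0.09, adjusted p 0.00454). The calls of GstO1 and GstO2 held in all 14 alternatives, and that of GstO3 was lost only with library totals (log2 fold change -0.27, edgeR adjusted p 0.0662). The cluster lies 1.31 to 1.32 Mb from Cdk8, so the loss of Cdk8 and other sequence linked on the mutant chromosome cannot be told apart for these 3 genes. This limit may also reach members farther off on chromosome 3, such as Ugt305A1 (3L, 5.78 Mb from Cdk8, called higher) and those on 3R. GstO2 shares 61 bp of exon sequence with se on the opposite strand, an omega class gene for an eye pigment enzyme, which itself had at most 6 counts in any library.

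Among the remaining Gst genes the changes were small. GstT4, a theta class gene on chromosome X (X:13404749-13409323) and over the 6 libraries the most abundant of the other Gst genes per length, had 166, 306 and 234 CPM in w1118, against 306, 207 and 244 in cdk8K185. The libraries overlapped throughout (edgeR log2 fold change 0.10 with an SE of 0.24, adjusted p 0.769), and the sign turned without w1118 replicate 1 (-0.10) or cdk8K185 replicate 1 (-0.06). GstT3, also on chromosome X, was called higher, from 15.4 ± 1.39 to 25.0 ± 0.864 CPM (mean ± SD of 3 pools; edgeR log2 fold change 0.70 with an SE of 0.11, adjusted p 0.00253). GstS1, the sigma class enzyme that conjugates products of lipid peroxidation, had 257, 274 and 261 CPM in w1118, against 228, 209 and 220.3 in cdk8K185. All its mutant libraries lay below the controls by a small margin, and the gene stood at the threshold (edgeR log2 fold change -0.27 with an SE of 0.09, adjusted p 0.0548), called by DESeq2 (adjusted p 0.00301) and with RLE size factors (edgeR adjusted p 0.0387). With library totals its log2 fold change was -0.05.

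The zeta class genes GstZ1 and GstZ2 encode maleylacetoacetate isomerase, an enzyme of tyrosine breakdown, and are neighbours on 3R. GstZ1 had 10.5, 11.7 and 11.3 CPM in w1118, against 11.6, 11.2 and 12.6 in cdk8K185, without a call (edgeR log2 fold change 0.08 with an SE of 0.12, adjusted p 0.594). GstZ2 had 31.3, 31.1 and 37.8 CPM in w1118, against 54.2, 36.5 and 44.2 in cdk8K185. Its lowest mutant library lay below the highest control library, and it was not called (edgeR log2 fold change 0.43 with an SE of 0.16, adjusted p 0.0704) except with library totals (log2 fold change 0.64) or without cdk8K185 replicate 2 (log2 fold change 0.57). GstT1 and GstT2 were not called either, at log2 fold changes of -0.18 and 0.33.

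The 3 Ugt genes called lower all fell more than 4-fold. Ugt301D1 (2L:18509560-18513512, 4 exons) had 190.3, 92.3 and 199 CPM in w1118, against 24.7, 22.7 and 21.2 in cdk8K185. The lowest control library was still above every mutant library, and the log2 fold change of -2.81 (SE 0.30, edgeR adjusted p 0.000885) was the largest decrease of the 54 genes. Ugt36D1 (2L:18823548-18826716, 5 exons) had 150.4, 96.6 and 122 CPM in w1118, against 20.1, 24.6 and 31.0 in cdk8K185 (edgeR log2 fold change -2.28 with an SE of 0.22, adjusted p 0.000475). In w1118 these were the most abundant Ugt genes per length, and in w1118 replicate 2 both were lower than in the other control libraries. Ugt37B1 (2L:6225048-6226842) was less abundant, at 6.70, 7.73 and 7.31 CPM in w1118, against 1.52, 1.27 and 0.773 in cdk8K185 (edgeR log2 fold change -2.60 with an SE of 0.29, adjusted p 0.000680). Its control libraries lay close together and far above the mutant ones. The calls of Ugt301D1 and Ugt36D1 held in all 14 alternatives and that of Ugt37B1 in the 13 that tested it.

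Ugt37A3 (3R:12741958-12743680, 2 exons) rose most in absolute level. It had 65.2, 84.9 and 78.7 CPM in w1118, against 228.5, 372 and 592 in cdk8K185. The mutant libraries spread over more than 2-fold, but the lowest of them was more than 2 times the highest control (edgeR log2 fold change 2.38 with an SE of 0.35, adjusted p 0.00278). Its neighbour Ugt37A2, which is transcribed towards it, had 3.68 to 17.2 CPM in w1118, against 14.4 to 24.5 in cdk8K185, with overlap and no call (log2 fold change 0.83, edgeR adjusted p 0.238). Ugt49C1 had the largest fold increase of the class from a very low control level, with 6, 5 and 6 counts in w1118 and 74, 26 and 61 counts in cdk8K185, or 0.566, 0.496 and 0.645 CPM against 6.24, 2.54 and 5.24 CPM. The lowest mutant library was more than 3 times the highest control library, and the fitted log2 fold change was 3.02. Since it was tested only through its mutant libraries, its call is a description and no support for a difference. Ugt36E1 had 1.79, 2.18 and 1.29 CPM in w1118, against 10.7, 7.82 and 8.93 in cdk8K185 (edgeR log2 fold change 2.37 with an SE of 0.25, adjusted p 0.000564). Ugt37C2 had 1.04, 1.78 and 2.58 CPM in w1118, against 8.27, 6.26 and 3.78 in cdk8K185. Its groups did not overlap (edgeR log2 fold change 1.76 with an SE of 0.42, adjusted p 0.0154), but without cdk8K185 replicate 1 the call was lost (log2 fold change 1.47, edgeR adjusted p 0.0724).

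**Figure D3:**
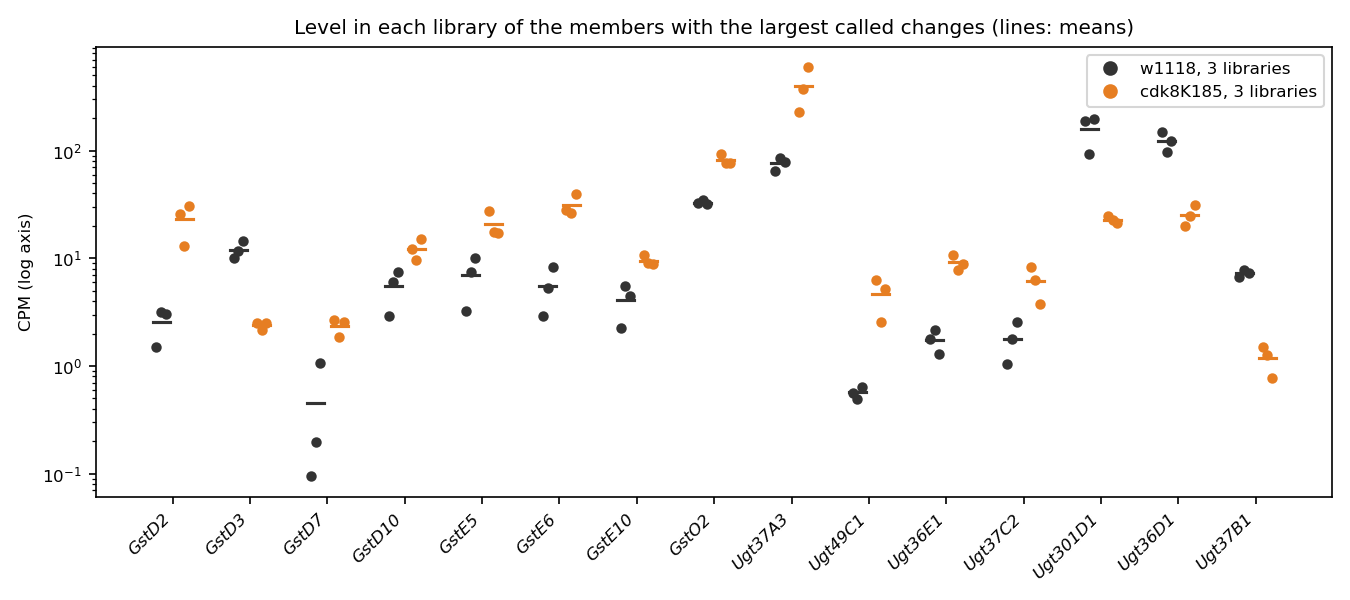
Level in CPM (log axis) of 15 members with called changes of at least 2-fold, with 1 point for each of the 3 w1118 (black) and 3 cdk8K185 (orange) libraries and lines at the group means. The points of the genotypes do not overlap for any of these genes, and GstD7 has the widest spread among its control libraries.

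The other 6 Ugt genes called higher changed by log2 fold changes of 0.58 to 1.45. They were Ugt37D1 (1.45), Ugt35C1 (1.34), Ugt302C1 (1.08), Ugt305A1 (0.98), Ugt35A1 (0.58) and Ugt303B3 (0.58). Ugt35C1, formerly Ugt86Dd, has been linked to nicotine resistance of larvae, and had 1.98, 4.36 and 3.55 CPM in w1118, against 9.87, 6.35 and 8.84 in cdk8K185. Its call was lost without cdk8K185 replicate 1 (log2 fold change 1.20, edgeR adjusted p 0.0579). The calls of Ugt35A1 and Ugt303B3 were lost in several fits, since Ugt35A1 was not called in 4 and Ugt303B3 in 5 of the fits that left out 1 library, with edgeR adjusted p values up to 0.127 and 0.139, and Ugt303B3 was called neither by DESeq2 nor by limma-voom, nor with RLE size factors (edgeR adjusted p 0.0567). Another 11 Ugt genes were tested and not called, with log2 fold changes from -0.29 (Ugt303A1) to 0.83 (Ugt37A2). They include Ugt316A1, at 65.3 ± 2.75 and 62.7 ± 3.08 CPM, and Ugt36A1, formerly Dorothy, at 10.2 ± 0.211 and 10.5 ± 1.10 CPM (SD, n = 3). The 11 Ugt genes that were not tested had 0 to 19 counts in each library, and Ugt35E2 and Ugt37E1 had none in any library.

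Neighbouring genes of these families did not always move together. Of the 70 genes 50 lie in 11 clusters, defined by gaps of at most 20 kb between members. They form 39 neighbouring pairs, 23 of which had both genes tested. In 4 of the 23 pairs the neighbours were called in opposite directions, and in 3 pairs in the same direction. The opposite pairs were GstD2 and GstD3 (363 bp apart), Ugt36D1 and Ugt36E1 (53 bp apart), GstO3 and GstO2 (1133 bp apart) and GstO2 and GstO1 (240 bp apart), of which all but GstO3 and GstO2 are on the same strand. The pairs with the same direction were GstD10 and GstD9, GstE5 and GstE6, and GstE6 and GstE7, all higher. GstO2 stands in both opposite pairs of the GstO cluster. Pairs of other neighbouring genes were not counted, so these counts are a description with no share of all genes beside them. In the cluster of 9 Ugt genes on 3R (3R:11151026-11177910), 2 genes were called higher (Ugt302C1 and Ugt35A1), 3 were not called and 4 were not tested. The neighbours GstD2 and GstD3, and likewise Ugt36D1 and Ugt36E1, are related in sequence, and reads that matched more than a single gene may have been dropped or placed on a relative, which was not tested. GstE10 and GstE1 also share 20 bp of exon sequence on opposite strands.

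**Figure D4:**
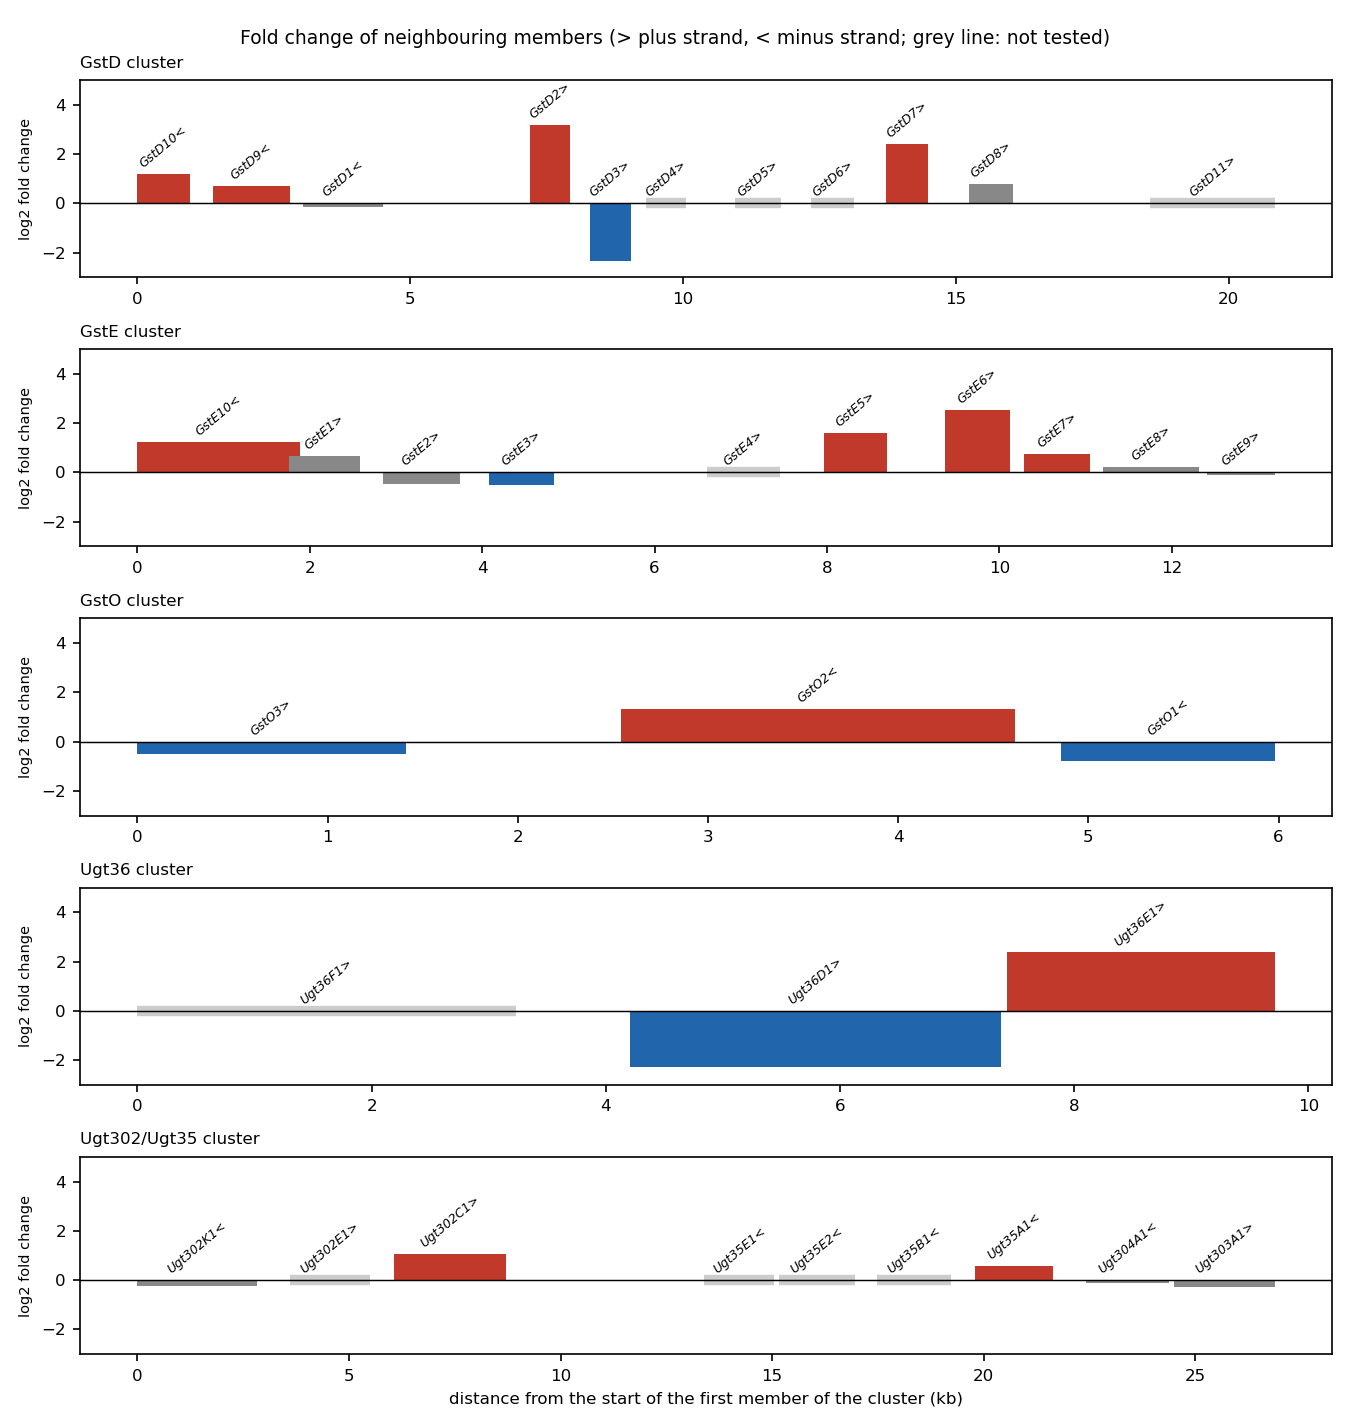
Log2 fold change (cdk8K185 over w1118) of the members of 5 clusters against distance in kb from the start of the first member, with bars as wide as the genes, red for called higher, blue for called lower, dark grey for not called and light grey strips for members not tested. Bars of opposite sign stand side by side for GstD2 and GstD3, for Ugt36D1 and Ugt36E1, and within the GstO cluster.

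The control libraries were not alike for the glutathione S-transferases. w1118 replicate 1 was the lowest control library for 25 of the 30 tested Gst genes (83.3%), among them 7 of 7 GstD and 11 of 13 GstE genes, and for 37 of the 54 members (68.5%), against 38.9% of all genes tested. Among the Ugt genes this held for 12 of 24. In the mutant, cdk8K185 replicate 2 was the lowest library for 6 of 7 GstD genes (85.7% against 33.5% of all genes). The highest library for 17 of 24 Ugt genes was cdk8K185 replicate 1 (70.8% against 33%). lncRNA:roX1, a transcript made in males, differed between libraries too, at 202, 426 and 451 CPM in w1118, against 754, 944 and 252 in cdk8K185. The testis thioredoxin TrxT followed another pattern, at 14.3, 24.4 and 6.02 CPM in w1118, against 1.52, 2.835 and 0.515 in cdk8K185. Its lowest control library was w1118 replicate 3, whereas roX1 was lower in w1118 replicate 1 than in the other control libraries. Also lowest in w1118 replicate 1 were all 6 muscle markers, with a summed level of 4158 CPM against 9874 and 11012 CPM, 7 of 10 midgut markers and 5 of 7 Malpighian tubule markers. The other lists did not share this. In them w1118 replicate 1 was lowest for 4 of 8 salivary gland, 3 of 8 fat body and 1 of 5 prothoracic gland markers. It was lowest for 0 of 6 nervous system, 0 of 5 haemocyte and 0 of 6 imaginal disc markers. The part of these differences in the levels of the Gst genes was not tested.

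The supply of glutathione was examined in a list of 30 genes for its synthesis, recycling and for related peroxidases. Of 24 tested, 7 were called higher (29.2% against 19.9% of all genes) and 5 lower (20.8% against 17%), with a median log2 fold change of 0.20. Gclc and Gclm, the subunits of glutamate-cysteine ligase, which makes the first step of glutathione synthesis, rose from 74.3 ± 9.83 to 121 ± 11.4 CPM and from 62.2 ± 13.8 to 101 ± 18.1 CPM (SD, n = 3), each with a log2 fold change of 0.70 (edgeR adjusted p 0.00516 and 0.0307). Neither glutathione synthetase gene could be followed, as Gss1 had 1 count in a single library and Gss2 was listed at 0 in all. Flies lack glutathione reductase and keep glutathione reduced through the thioredoxin system, of which Trxr1 (log2 fold change 0.42) and Trx2 (0.55) were called higher, as was the peroxiredoxin Prx2 (1.12). Of the enzymes that provide NADPH, Men and Idh were higher (1.79 and 0.40) and Zw was lower (-0.68). The peroxiredoxins Prx6b and Prx6c (-1.69 and -1.54), Ggt-1, a gamma-glutamyl transferase that breaks glutathione down (-0.84), and the testis thioredoxin TrxT (-3.22) were lower as well.

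Of 9 regulators of detoxification genes, 3 were called higher (33.3% against 19.9% of all genes) and the other 6 were not called. By DESeq2, with RLE size factors and in each fit that left out 1 library 2 of 9 were higher (22.2%). Of all genes 16.9% were higher by DESeq2, 18.1% with RLE size factors and 13.4% to 17.8% with 1 library left out. Without cdk8K185 replicate 1 another regulator was lower. The 3 genes called higher in the main fit were the nuclear receptors Hr96 and Hnf4 (log2 fold change 0.64 and 0.29) and crc, the fly ATF4 (0.50). cnc, which encodes the factor CncC of the antioxidant response, was level at 495 ± 48.3 and 497 ± 14.4 CPM (mean ± SD of 3 pools; edgeR log2 fold change 0.01, adjusted p 0.972). Keap1, which holds CncC in check, had 18.8 ± 4.49 and 13.3 ± 2.32 CPM and was not called (log2 fold change -0.50, edgeR adjusted p 0.0878). CncC activity is set largely at the protein level, which RNA-seq does not measure.

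The UDP-sugars used by Ugt enzymes are made from glucose phosphate. Of 16 tested genes of this supply, 3 were called higher (18.8% against 19.9% of all genes) and 2 lower (12.5% against 17%), with a median log2 fold change of -0.04. UGP, which makes UDP-glucose, was at 92.7 ± 14.1 and 89.0 ± 6.22 CPM (mean ± SD of 3 pools; edgeR log2 fold change -0.06, adjusted p 0.740), and sgl, which turns UDP-glucose into UDP-glucuronate, missed the threshold at a log2 fold change of -0.27 (edgeR adjusted p 0.0586). Pgm1, which converts glucose phosphates into each other, fell from 427 ± 128 to 153 ± 43.8 CPM (edgeR log2 fold change -1.48 with an SE of 0.29, adjusted p 0.00864), and Galk, a galactokinase, was lower too (-0.91). AGBE was among the genes called higher (1.18). The hexokinase Hex-C was counted among them too, with 3, 2 and 5 counts in w1118, against 51, 27 and 22 in cdk8K185, but it was tested only through its mutant libraries, so its call supports no difference. Without cdk8K185 replicate 1 the list held 3 calls in place of 5.

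Transporters of the ABC families, some of which export conjugates, were mostly higher in the mutant. Of 16 tested, 9 were called higher (56.2% against 19.9% of all genes) and 1 lower, with a median log2 fold change of 0.57. Mdr50, related to P-glycoprotein, rose from 5.47 ± 1.61 to 127 ± 27.9 CPM (mean ± SD of 3 pools; edgeR log2 fold change 4.53 with an SE of 0.26, adjusted p 7.89e-05), and Mrp5 from 9.14 ± 1.51 to 75.3 ± 9.14 CPM (edgeR log2 fold change 3.04 with an SE of 0.16, adjusted p 4.55e-05). Mrp4 rose from 17.6 ± 0.237 to 44.6 ± 1.06 CPM (log2 fold change 1.34), and Mdr49 by a log2 fold change of 0.38. Another 5 genes of the list were higher as well, among them CG11898 (2.34), rdog (1.15), CG31793 (0.92) and Sur (0.76), and Cftr was lower (-1.10). MRP was higher in each mutant library than in any control library but was not called (log2 fold change 0.31, edgeR adjusted p 0.0835). Uro, a urate oxidase marker of Malpighian tubules, a tissue where such transporters work, rose beside them from 12.5 ± 7.64 to 232 ± 64.0 CPM, whereas the other 6 tubule markers tested had log2 fold changes between -0.67 and 0.32. The part of tissue composition in the transporter levels was not tested.

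**Figure D5:**
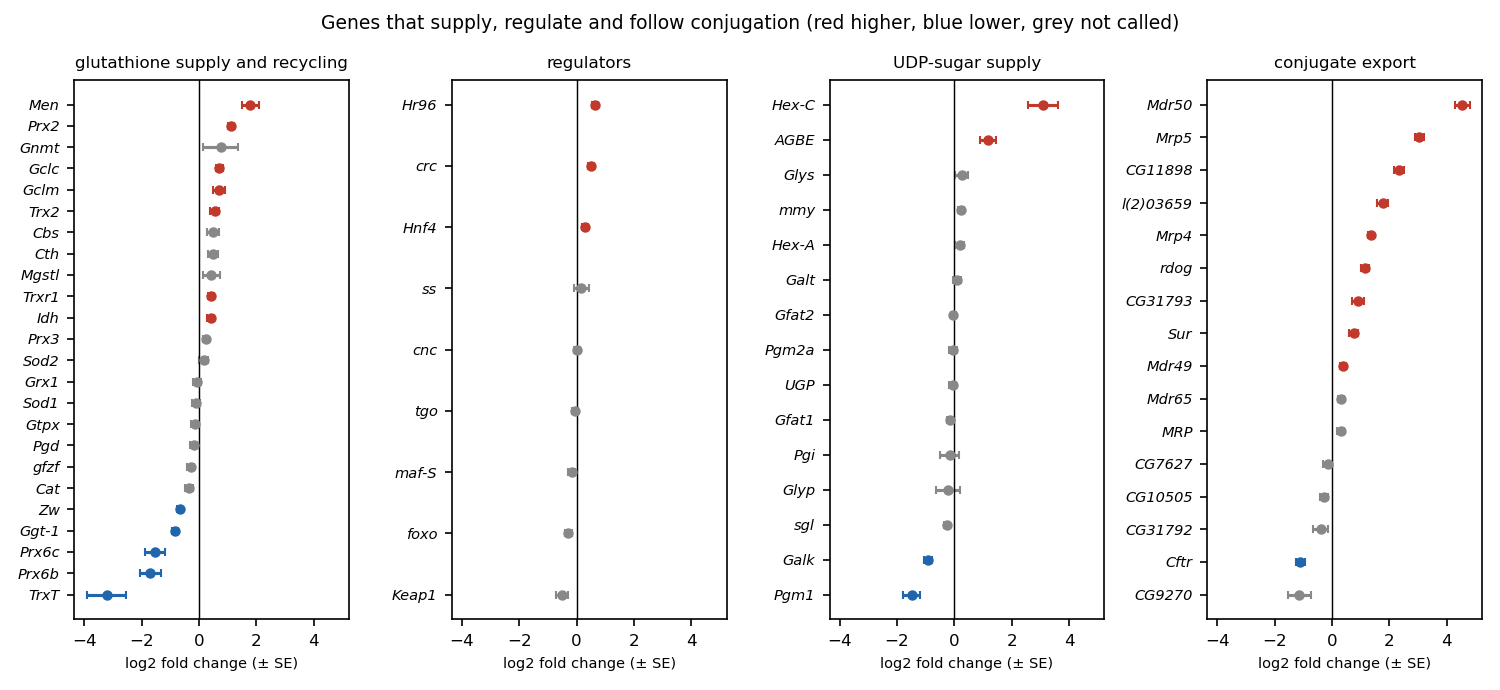
Log2 fold change (cdk8K185 over w1118, ± SE) of tested genes of the lists for glutathione supply and recycling, regulators, UDP-sugar supply and conjugate export, with called genes in red (higher) or blue (lower) and others in grey. In the export panel 9 of 16 genes are red, while cnc and UGP sit near 0.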

How the data were processed

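RNA-seq of whole wandering larvae gave 3 w1118 and 3 cdk8K185 libraries, each from 10 pooled larvae. The authors deposited a single table of raw counts per FlyBase gene, with 1 column for each library and no normalization. The submitters' processing notes name STAR, featureCounts, DESeq2 and the build dm6, while the strand setting, the annotation release and the treatment of reads that match several genes are not given in the sources used here. Counts of overlapping genes and of close relatives are therefore uncertain. Columns named WT and cdk8 were taken as the libraries with the same numbers.

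Symbols, positions and exon lengths came from the BDGP6.54 annotation, the same assembly as dm6, which held 17477 of the 17562 identifiers and gave symbols for 17476 of them. Counts were tested with edgeR 4.0.16 (limma 3.58.1, R 4.3.3). Genes passed filterByExpr (minimum count 10, minimum total count 15), libraries were scaled by TMM, and genotype was the only term of a robust quasi-likelihood model (glmQLFit, glmQLFTest, tests on both sides). Benjamini-Hochberg adjustment covered the 10632 genes that passed, with 0.05 as the threshold. The SE of a log2 fold change was its size over the root of the F statistic. CPM were computed on TMM-scaled library sizes, where 1 count was worth 0.0844 to 0.108 CPM, and errors cover 3 pools a genotype. The labels name no batch. Replicate libraries differed beyond sampling noise (chi-square per degree of freedom 17.87 to 43.75). The fits were also run on simulated counts, drawn gene by gene without shifts shared by many genes of a library. No result here rests on that run.

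Values in each library and full statistics are given for called members with an absolute log2 fold change of at least 1 (if over 8 in a class, the 4 largest in each direction), the most abundant member of each class per length, and GstD1, GstE14, GstS1, GstZ1 and GstZ2. The other members are given by counts, ranges and examples. The members, the lists of related genes and the marker lists were chosen with earlier results of these data known. Of 135 names written for these lists, 2 (Urm8 and phm) had no match. The alternatives were DESeq2 1.42.0, limma-voom, RLE size factors, library totals, 2 other filters (at least 1 count in some library, at least 10 in each), a block for the replicate number, leaving out each library in turn, and, chosen after seeing the data, a filter on a mean of at least 10 counts. Promoters and proteins were not analysed here. A gene of the UDP-sugar list is counted in the list but is not reported here by itself. Figures and annotation used Python 3.11.15 with matplotlib 3.10.9 and pandas 2.3.3.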

Additional observations from a re-analysis of the deposited data

How the results depend on the processing

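Of the 27 called members, 15 kept their call in every one of the 14 alternatives that tested them, 12 lost it in at least 1, and none changed direction. Of the 27 members not called, 8 gained a call and 11 changed direction in at least 1 alternative. Leaving out each library in turn gave 2 to 5 called GstD genes in place of 5 and 3 to 6 called UDP-sugar genes in place of 5. The median log2 fold change then ran from 0.12 to 0.40 for GstE, from -0.0305 to 0.22 for the other Gst genes and from 0.28 to 0.71 for Ugt. The negative value was that without w1118 replicate 1. With library totals the median was 0.46 for GstE and 0.31 for the other Gst genes, and 32.5% of all genes were called higher and 11.3% lower. Library totals also gave positive log2 fold changes for genes that were slightly negative with TMM, namely Ugt50B3 (0.17), GstT1 (0.0439), GstE9 (0.11), GstE12 (0.14), Ugt316A1 (0.16), Ugt304A1 (0.11) and GstD1 (0.0762). By construction this scaling adds a shared shift to all genes. Leaving out single libraries spanned 0 for Ugt36A1 (-0.0435 to 0.14), Ugt50B3 (-0.12 to 0.0788), GstE9 (-0.38 to 0.17), Ugt49B1 (-0.0883 to 0.22), GstE12 (-0.21 to 0.0471), Ugt304A1 (-0.17 to 0.0112), Ugt303B1 (-0.0179 to 0.38) and GstT4 (-0.10 to 0.34). The cause of these differences was not tested.

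The labels give both genotypes the replicate numbers 1 to 3, but the deviations of same-numbered libraries from their group means correlated at -0.195, 0.508 and 0.562, so the numbers were not taken as pairs. Libraries 2 and 3 correlated best with their own number and library 1 did not. With the replicate number as a block, 27 members were called (19 higher, 8 lower) and 3988 of all genes, with GstE5 and Ugt35A1 no longer called and GstE1 and GstE14 newly called. Members with few reads limit what can be shown. The 16 untested members had at most 19 counts in a library.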
